A study of Canis lupus familiaris with 81 samples.

Results

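Kidney, spleen and liver of the dog were profiled as control tissues in a study of osteosarcoma of the limb bones. The control regions are the 12 whose titles read control kidney, control spleen or control liver, of 81 libraries in all, with 4 regions per tissue. They were compared with each other, without the tumours. The titles are the only label that names the tissue, since the other fields of these regions carry the osteosarcoma wording of the whole series, and no treatment is given for them. The assay was the GeoMx Digital Spatial Profiler with a canine cancer probe panel, which counts probe tags cut loose from 1 outlined area of a tissue section at a time. The tissues sat on 2 tissue microarrays, slides that each hold small pieces of many specimens, and each array carried 2 regions of every tissue. The labels give neither the animal, breed, age or sex behind a control region nor the way the region was chosen. The 4 regions of a tissue may therefore come from 1 animal, so the p-values reported here measure the spread between regions, not between dogs, and are too small if regions share an animal.

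The kidney filters blood in its glomeruli and recovers water, salts and small solutes in its tubules, whose epithelial cells make up most of the organ. The spleen is a lymphoid organ that also clears old red blood cells, and it holds large numbers of B cells, T cells and macrophages. The liver is mostly hepatocytes, which make the bulk of the plasma proteins and carry many metabolic enzymes, so that a few secretory transcripts can take a large share of its RNA. None of the 2010 probe identifiers, RTS0111886 to RTS0113895, matched the gene table at hand. Probes are therefore reported by identifier, and the tissue titles could not be checked against marker genes. What a region shows is the summed signal of the cells in it, and more cells of a type cannot be told apart from more RNA per cell.

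Summed counts ranged from 156004 to 396058 for kidney, from 118688 to 306639 for spleen and from 92126 to 205809 for liver, with a median of 187852 over the 12. All 2010 probes had counts in all 12 regions, the lowest being 4, and the median count of a probe in a region lay between 25 and 91. The no-template control held 74 counts over 38 probes. Totals did not differ past the threshold between any pair of tissues, with adjusted p of 0.643 to 0.686 by exact two-sided permutation tests over 4 against 4 regions. Within each tissue, regions 1 and 2 are those of array 1 and regions 3 and 4 those of array 2, in the order of the region numbers on each array. Liver region 3 had the lowest total of the 12 and held single probes far above the other liver regions, as described with the spread within tissues.

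The first question was which regions may repeat 1 place across the arrays. Regions of the same order on the 2 arrays, 1 with 3 and 2 with 4, were closer to each other than to the other regions of their tissue. As a biological coefficient of variation, which is the spread of the counts of 2 regions beyond counting error, the pair of kidney regions 1 and 3 stood at 6.76% and the pair 2 and 4 at 6.60%. The other 4 kidney pairs lay between 12.1% and 13.2%. In spleen, the same-order pairs stood at 6.07% and 4.75%, and the others between 6.63% and 8.89%. In liver, regions 2 and 4 stood at 7.71% and regions 1 and 3 at 12.0%, against 12.7% to 17.3% for the rest. Kidney thus showed the clearest split by order and spleen the least, with the liver pair of regions 1 and 3 only just below the other liver pairs. For comparison, the 48 pairs of different tissues lay between 39.2% and 47.6%.

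**Figure D1:**
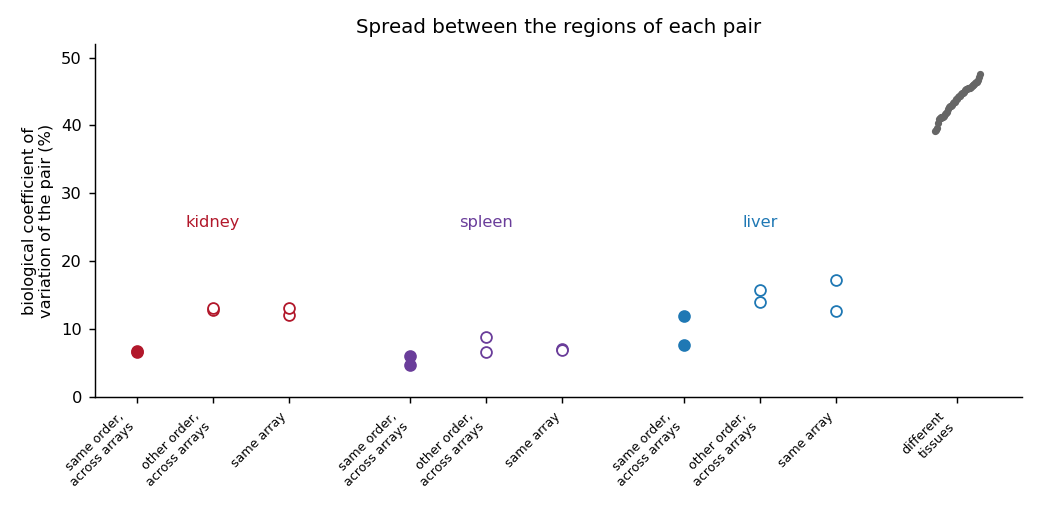
The biological coefficient of variation, in percent, is plotted on the vertical axis for all 66 pairs of control regions; each point is 1 pair, and filled points are pairs of the same order on the 2 arrays. In each tissue the filled points are the lowest, between 4.75% and 12.0%, and all 48 pairs of different tissues lie at 39.2% or above.

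By the chi-square of the counts per degree of freedom over 2010 probes, 5 of the 6 same-order pairs were closer than every other pair of their tissue, the exception being spleen regions 1 and 3 with 1.27 against 1.26 for regions 3 and 4. With all regions thinned to the lowest total, so that depth was equal, all 6 pairs were closer, and the nearest neighbour of each of the 12 regions was the region of the same order. By the correlation of centred log2 levels, the nearest region was the same-order one for 7 of 12. No pair of regions was a copy of another at full depth, since even the closest, spleen regions 2 and 4, differed by more than counting noise with a chi-square p of 1.02e-06. All 4 regions of a tissue were kept as samples. Where a pair holds 1 place, the tissue has 2 independent samples rather than 4, so each probe comparison was also run with each same-order pair summed. The permutation tests of summary measures were not run that way.

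The main comparison tested the raw counts of all probes over the 12 regions with edgeR's quasi-likelihood test and TMM scaling, which equalises the bulk of the probes between regions, at an adjusted p of 0.05. The biological coefficient of variation over the 12 regions was 11.3%. Between kidney and spleen 899 of 2010 probes (44.7%) passed, 461 (22.9%) higher in kidney and 438 (21.8%) higher in spleen. Between kidney and liver 919 (45.7%) passed, 541 (26.9%) higher in kidney and 378 (18.8%) higher in liver. Between spleen and liver 796 (39.6%) passed, 496 (24.7%) higher in spleen and 300 (14.9%) higher in liver. Each tissue takes part in 2 of the 3 comparisons, so the calls of the comparisons are not independent of each other.

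**Figure D2:**
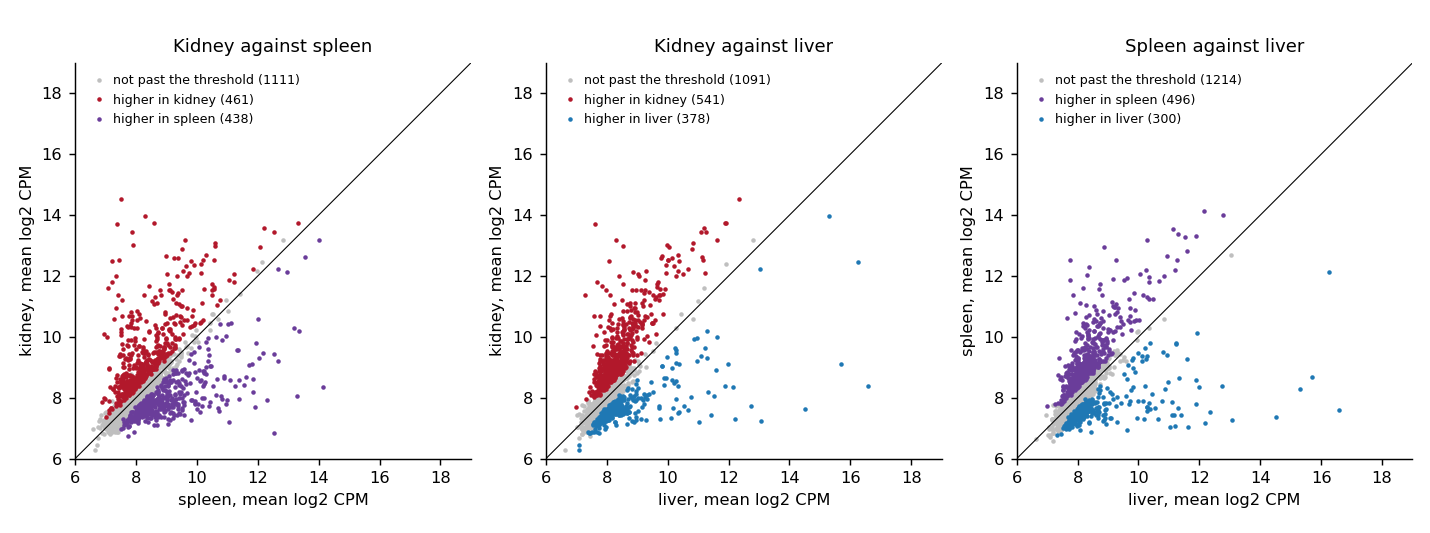
Mean log2 CPM over 4 regions is plotted for each of the 2010 probes in 1 tissue against another; colours mark probes past an adjusted p of 0.05 and the line marks equal levels. Most probes lie between 7 and 10 in every tissue, while a few liver probes reach beyond 14. Of these, RTS0113411, RTS0113489 and RTS0112947 have spleen and kidney levels near those of most other probes. RTS0111951 also has 12.5 in kidney and 12.1 in spleen, and RTS0111944 has 14.0 in kidney.

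How many probes were called in each direction depended on the scaling. With upper quartile scaling the calls became 433 higher in kidney and 462 higher in spleen, 386 higher in kidney and 1051 higher in liver, and 330 higher in spleen and 855 higher in liver. Without scaling factors, by library size only, the same pairs of counts were 305 and 725, 483 and 489, and 675 and 152. Scaled to the 503 probes lowest over the 12 regions they were 469 and 411, 711 and 141, and 743 and 147. The median log2 fold change of all probes, kidney over liver, was -0.10 with TMM, -0.42 with upper quartile, -0.19 with library size and 0.14 with the 503 lowest probes. For kidney over spleen the 4 medians were -0.01, -0.04, -0.27 and 0.02, and for spleen over liver -0.02, -0.30, 0.15 and 0.20. No probe was called in opposite directions by TMM and another of the 4 scalings in any of the 3 comparisons.

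**Figure D3:**
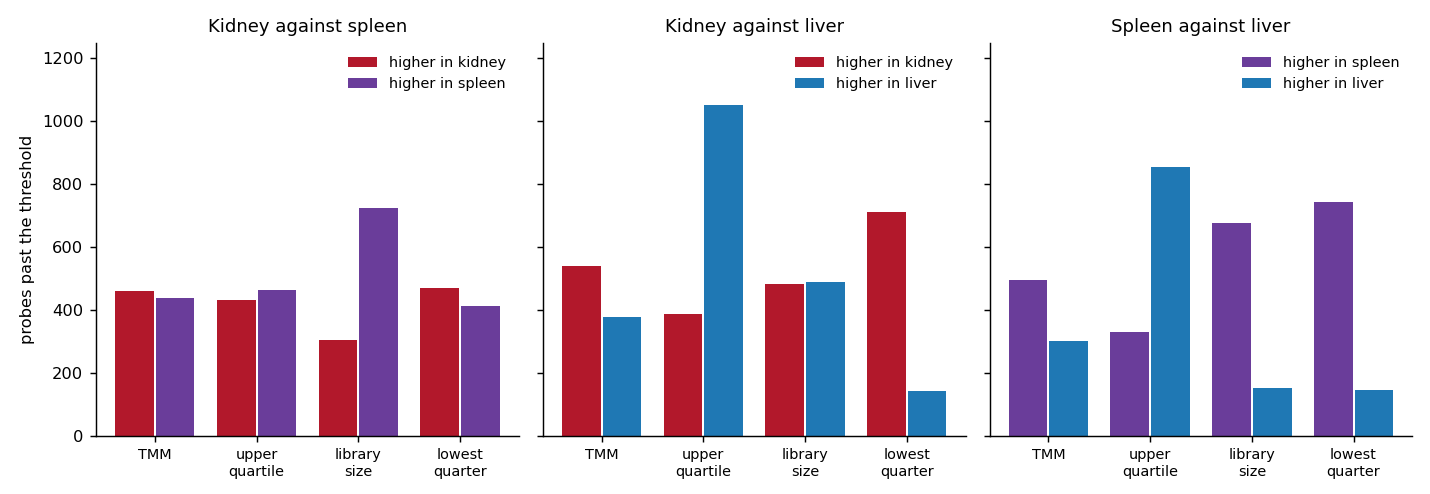
Bars give the number of probes past an adjusted p of 0.05 in each direction under 4 scalings, with 1 panel per comparison. The liver bar of the kidney comparison runs from 141 to 1051, and the bars of kidney and spleen against each other are near equal under 3 of the 4 scalings.

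The 4 regions of 1 tissue did not overlap the 4 of the other for 415 probes higher in kidney (20.6%) and 406 higher in spleen (20.2%), 483 higher in kidney (24.0%) and 326 higher in liver (16.2%), and 449 higher in spleen (22.3%) and 276 higher in liver (13.7%). Calls that hold under all 4 scalings numbered 305 higher in kidney (15.2%) and 411 higher in spleen (20.4%), 386 higher in kidney (19.2%) and 141 higher in liver (7.01%), and 330 higher in spleen (16.4%) and 141 higher in liver (7.01%). Against a 2-fold difference, tested with glmTreat, 131 (6.52%) were higher in kidney and 108 (5.37%) in spleen, 171 (8.51%) in kidney and 49 (2.44%) in liver, and 104 (5.17%) in spleen and 58 (2.89%) in liver. The directions were uneven in another way at large sizes. Of the probes called at 32-fold or more, 8 were higher in kidney and 3 in spleen, 1 was higher in kidney and 5 in liver, and none was higher in spleen and 6 in liver. Liver thus had fewer probes above the other tissues than they had above it under TMM, but most of the probes with differences of that size in its 2 comparisons.

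The probes named below were picked by size of difference or of level, so their sizes describe the extremes of each comparison. Those named for a pair of tissues, or as above or below both others, were also required to show no overlap there. That separation therefore follows from the choice. Levels are CPM, the count relative to the TMM-scaled library size, and differences are log2 fold changes ± SE from edgeR with n = 4 regions per tissue. No probe-specific background was subtracted. The 503 lowest probes had a mean level of 7.50 ± 0.05 log2 CPM (SD, n = 4) in kidney, 7.52 ± 0.04 in spleen and 7.73 ± 0.03 in liver. Where the lower tissue of a comparison lies near that level, the fold is limited by it.

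**Figure D4:**
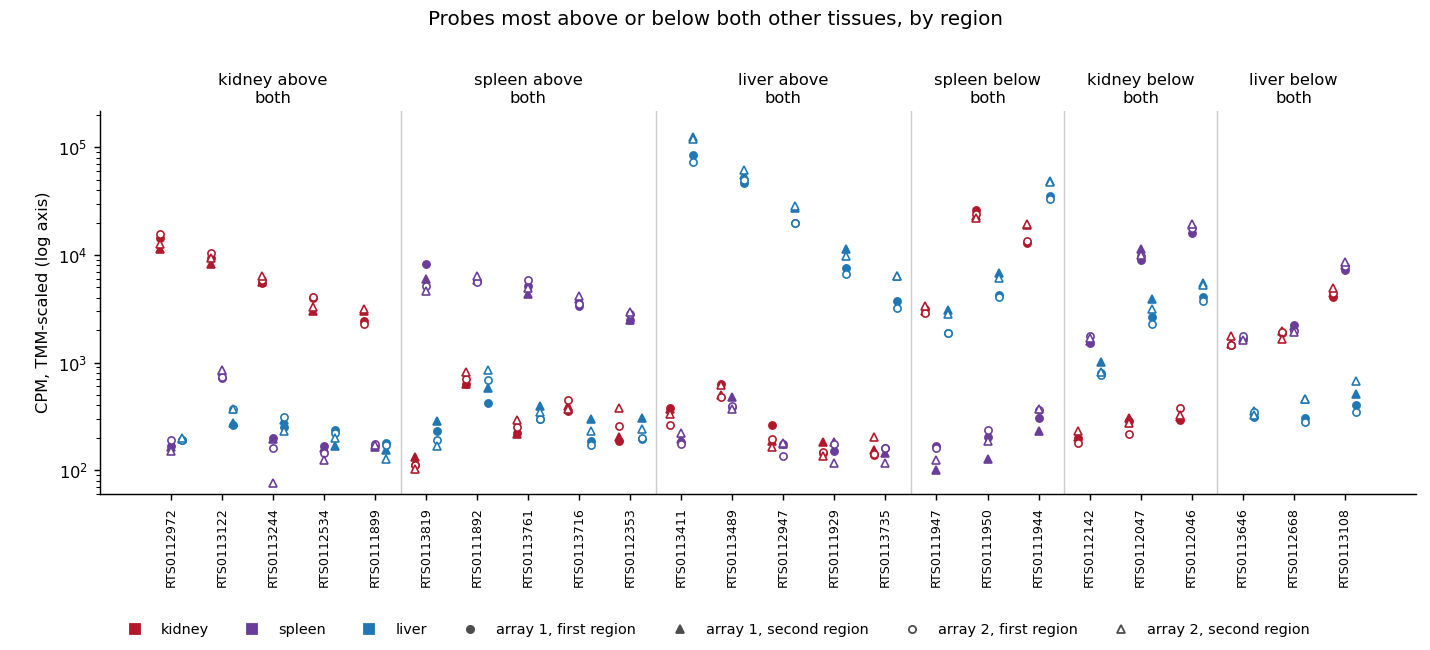
CPM on a log axis is shown in each of the 12 regions for the 5 probes most above both other tissues in each tissue and the 3 most below; colour gives the tissue, filled points array 1, open points array 2, circles the first and triangles the second region of an array. In every panel the 4 regions of the tissue named stay clear of the other 8, as the choice of these probes required. In liver the triangles lie above the circles for each of the 5 liver-high probes on the TMM scale plotted, which for RTS0113489 does not hold by library size alone.

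In kidney, the probe furthest above both other tissues was RTS0112972. Its level was 14458, 11365, 15529.6 and 12701 CPM in kidney regions 1 to 4, 167, 163, 189 and 152 in spleen and 191, 196, 189.8 and 199.7 in liver. The kidney regions lie clear of the others, and regions 1 and 3 are a little higher than regions 2 and 4, while the spleen and liver regions stay near the level of the lowest probes. Its log2 fold change was 6.33 ± 0.19 over spleen (adjusted p = 2.99e-20) and 6.12 ± 0.19 over liver (adjusted p = 9.89e-20), which is 80.5-fold and 69.4-fold. Between spleen and liver it did not pass, with a log2 fold change of -0.21 ± 0.22 (adjusted p = 0.45). RTS0113122 reached 9275, 8238, 10469 and 9359.9 CPM in kidney, 719.8, 827, 727 and 851 in spleen and 264, 272, 369.6 and 368 in liver. Here the 3 tissues form a ladder with no overlap, and the kidney excess was 3.58 ± 0.16 over spleen and 4.91 ± 0.18 over liver (adjusted p = 3.44e-17 and 8.78e-19).

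Another kidney probe, RTS0113244, had 5453, 5652, 5819.6 and 6439.7 CPM in kidney, 201, 193, 159 and 76.1 in spleen and 251, 294, 309.7 and 231 in liver. Its kidney values are tight, and spleen region 4 is the lowest of all 12 regions. The difference was 5.13 ± 0.19 over spleen and 4.43 ± 0.19 over liver (adjusted p = 1.01e-18 and 1.7e-17). RTS0112534 had a kidney mean of 3590.5 ± 538 CPM (SD, n = 4) against 125 to 237 in the other 8 regions, and RTS0111899 2706 ± 426 against 126 to 178. They were 23.4-fold and 16.0-fold above spleen, and 17.3-fold and 17.0-fold above liver. These 2 probes ran opposite ways within kidney, RTS0112534 being higher in regions 1 and 3 and RTS0111899 higher in regions 2 and 4.

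In spleen, RTS0113819 stood furthest above both other tissues. It measured 8303, 6003, 5189 and 4642 CPM in the spleen regions, 111, 133, 111 and 102 in kidney and 232, 288, 189.8 and 168 in liver. Spleen region 1 is the highest and region 4 the lowest of its tissue, and even that one is more than 10 times any kidney or liver region. The log2 fold change was -5.69 ± 0.21 for kidney over spleen and 4.73 ± 0.20 for spleen over liver (adjusted p = 1.01e-18 and 2.67e-17). RTS0113761 measured 5139, 4367, 5848 and 4905 CPM in spleen against 221, 218, 253 and 293 in kidney and 296, 397, 299.7 and 347 in liver. The kidney regions lie just below the liver regions, and spleen was 20.7-fold above kidney and 15.0-fold above liver (adjusted p = 1.01e-18 and 1.54e-17).

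RTS0113716 measured 3361, 3866, 3485 and 4186 CPM in spleen, 352, 393, 453 and 369.8 in kidney and 187, 299, 169.8 and 231 in liver, with spleen regions 2 and 4 the upper ones. Its spleen excess was 9.44-fold over kidney and 16.5-fold over liver (adjusted p = 1.16e-16 and 1.85e-17). RTS0112353 had a spleen mean of 2681 ± 225 CPM against 187 to 376 elsewhere. RTS0111892 had 5884 ± 321 CPM in spleen against 424 to 851 elsewhere, so it was present well above the lowest probes in kidney and liver too. Their spleen excess over kidney was 10.6-fold and 8.50-fold, and over liver 11.3-fold and 9.51-fold. Between kidney and liver neither differed past the threshold (adjusted p = 0.746 and 0.454).

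In liver, RTS0113411 gave the largest difference of any probe in any of the 3 comparisons. It measured 85725, 125428, 73828 and 120651 CPM in the liver regions, 380.1, 366, 264 and 332 in kidney and 184, 193, 174 and 221 in spleen. Liver regions 2 and 4 are the upper ones and regions 1 and 3 the lower ones, and the kidney regions all lie above the spleen regions. Liver was 301-fold above kidney and 525-fold above spleen, with log2 fold changes of -8.23 ± 0.33 and -9.04 ± 0.35 for the other tissue over liver (adjusted p = 8.04e-18 and 5.07e-18). This probe alone took 9.77% ± 1.41 (SD, n = 4) of all liver counts.

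RTS0113489 measured 46299, 55686, 49402 and 61345 CPM in liver, 629, 504, 479.7 and 612 in kidney and 385, 480.2, 394 and 374 in spleen. RTS0112947 measured 19970.1, 27122, 19881 and 28665 CPM in liver, 263, 186, 195 and 166 in kidney and 174, 175, 136 and 179.9 in spleen. Both are higher in liver regions 2 and 4 than in 1 and 3, which for RTS0113489 does not hold by library size alone, with no overlap of liver with the other tissues. Liver exceeded kidney 96.2-fold and 119-fold, and spleen 129-fold and 141-fold, in that order (adjusted p at most 3.54e-18). RTS0111929 had a liver mean of 8834 ± 2071 CPM against 118 to 184 elsewhere, and RTS0113735 4921 ± 1672 against 118 to 204. These were 56.3-fold and 30.9-fold above kidney.

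Other probes marked 1 tissue by a lower level there than in the other tissues, or set 1 pair of tissues apart from the other. RTS0111950 was the highest probe of kidney and 1 of the 3 probes furthest below both other tissues in spleen. It measured 25986, 23102, 24001 and 22150.1 CPM in kidney, 4236, 6753, 4076 and 6159.7 in liver and 204, 127, 235 and 187 in spleen. The kidney regions are the highest, the liver regions an intermediate step with regions 2 and 4 above 1 and 3, and the spleen regions near the level of the lowest probes. Kidney was 129.9-fold above spleen, the largest difference of that comparison (log2 fold change 7.02 ± 0.26, adjusted p = 1.01e-18), and 4.49-fold above liver (adjusted p = 3.15e-10).

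RTS0111944 had the reverse order of kidney and liver. It measured 35554, 48546, 32958 and 47775 CPM in liver, 13034, 19046, 13584 and 19517 in kidney and 305, 231, 364 and 367 in spleen. In both kidney and liver, regions 2 and 4 are the upper pair, and the tissues do not overlap. Liver was 2.53-fold above kidney (adjusted p = 1.05e-05) and 133-fold above spleen (adjusted p = 1.85e-17), while kidney was 52.7-fold above spleen. RTS0111947 was shared by kidney and liver at like levels, with means of 3099 ± 180.3 and 2403 ± 625 CPM that did not differ past the threshold (log2 fold change 0.37 ± 0.16, adjusted p = 0.0574), against 101 to 167 in spleen. Its spleen regions were 22.7-fold below kidney and 17.6-fold below liver.

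Spleen and liver, in turn, shared probes that were lower in kidney. Within kidney, RTS0112046, RTS0112047 and RTS0112142 lay at percentiles 66.8, 59.2 and 33.3 of all probes by mean CPM. RTS0112046, the highest probe of spleen, measured 15933, 18792, 17915 and 19275 CPM in spleen, 4031, 5486, 3746 and 5224 in liver and 290.3, 311, 379.5 and 325 in kidney. RTS0112047, which bears the next identifier, measured 8915, 11357, 9673 and 9990.1 in spleen, 2642, 3904, 2288 and 3132 in liver and 283, 308, 216 and 274 in kidney. Both fall from spleen to liver to kidney with no overlap between tissues, and in both the liver regions 2 and 4 are the upper pair, although for RTS0112047 not by library size alone. Spleen exceeded kidney 55-fold and 36.5-fold (adjusted p = 1.01e-18 and 2.17e-18), and liver exceeded kidney 14.1-fold and 11.0-fold. RTS0112142 took the same order, with means of 1642 ± 95.8, 845 ± 109.6 and 203 ± 20.6 CPM in spleen, liver and kidney.

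Kidney and spleen shared probes that were lower in liver. Within liver, RTS0113108, RTS0112668 and RTS0113646 still lay at percentiles 90.5, 84.4 and 78.1 of all probes by mean CPM. RTS0113108 measured 7312, 7995, 7855 and 8627 CPM in spleen, 4029, 4415, 4417 and 4935 in kidney and 405, 506, 349.7 and 673 in liver. The liver regions are far below the rest, with regions 2 and 4 the upper pair, and spleen lies above kidney without overlap. Liver was 16.6-fold below spleen (adjusted p = 1.25e-16) and 9.30-fold below kidney (adjusted p = 1.35e-14). For RTS0112668 the kidney and spleen means were 1859 ± 152 and 2069 ± 157 CPM, which did not differ past the threshold (adjusted p = 0.393), against 377 ± 98.6 in liver. For RTS0113646 they were 1539.6 ± 147 and 1675 ± 59.9 (adjusted p = 0.437), against 335 ± 20.6. Liver lay 4.94-fold and 4.60-fold below kidney for these probes.

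The remaining probes among the 5 largest of each comparison and direction were among those 5 for 1 pair only. Some also differed widely in another pair, RTS0112052 being 21.5-fold and RTS0112481 9.98-fold higher in liver than in spleen. RTS0112481 was 48.9-fold and RTS0113601 37.8-fold higher in kidney than in spleen. RTS0113601 split within kidney, with 5536, 11785, 5529.7 and 13089.8 CPM, so regions 2 and 4 held more than regions 1 and 3. RTS0112100 was 18.3-fold higher in spleen than in kidney, and RTS0112525 13.3-fold higher in spleen than in liver. RTS0112608 was 21.7-fold higher in kidney than in liver, with spleen between them at 1446 to 1629 CPM. RTS0112052 was 32.8-fold higher in liver than in kidney and measured 5106, 8879.5, 5045 and 9607 CPM in the 4 liver regions, again with regions 2 and 4 the upper pair. All 10 probes named for each comparison were called under all 4 scalings and against a 2-fold difference, and the highest adjusted p among them in edgeR was 7.74e-16. They were chosen as the largest differences among called probes, so these results follow largely from the choice.

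Treating same-order regions as 1 sample kept most calls. With each pair summed, so that a tissue had 2 samples, 817 of the 899 kidney and spleen calls (90.9%), 802 of the 919 kidney and liver calls (87.3%) and 714 of the 796 spleen and liver calls (89.7%) were called the same way, and none the opposite way. The sums hold the same counts, so the shared direction follows largely from the method and is no independent check. With the 4 regions of 2 tissues on 1 array in place of 8, array 1 alone gave 717, 689 and 612 calls and array 2 alone 598, 558 and 460. Calls the same way on both arrays numbered 540, which is 75.3% of those of array 1 and 90.3% of those of array 2, then 469 (68.1% and 84.1%) and 397 (64.9% and 86.3%). Spleen and liver totals were lower on array 2 (92126 to 134923 counts) than on array 1 (202700 to 306639), while kidney totals overlapped. The part of depth in these numbers was not tested. Where same-order regions hold 1 place, the arrays are not independent of each other. RTS0112819 was the only probe called in opposite directions by the arrays, in kidney over liver with log2 fold changes of 1.25 on array 1 and -2.34 on array 2, and in spleen over liver with 0.94 and -2.97. It is a probe with 1 liver region far above the rest, liver region 3 on array 2.

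The counts of liver were concentrated in few probes. The 10 highest probes of each region took 30.5%, 35.7%, 29.1% and 35.0% of the counts of liver regions 1 to 4, whereas kidney regions gave 12.5% to 12.8% and spleen regions 11.4% to 12.5%. No liver region overlaps the other tissues, and liver regions 2 and 4 stand above 1 and 3. The means were 32.6% ± 3.27 (SD, n = 4) in liver, 12.6% ± 0.14 in kidney and 12.1% ± 0.47 in spleen. Each of the 3 differences had an exact two-sided permutation p of 0.0286, the smallest that 4 against 4 regions allow, and the adjusted p was 0.0286. These tests take the 4 regions of a tissue as separate samples, so the p is too small where same-order regions hold 1 place. The kidney and spleen difference of 0.57 percentage points did not pass with all regions thinned to the same total, at an exact permutation p of 0.0571 after adjustment.

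**Figure D5:**
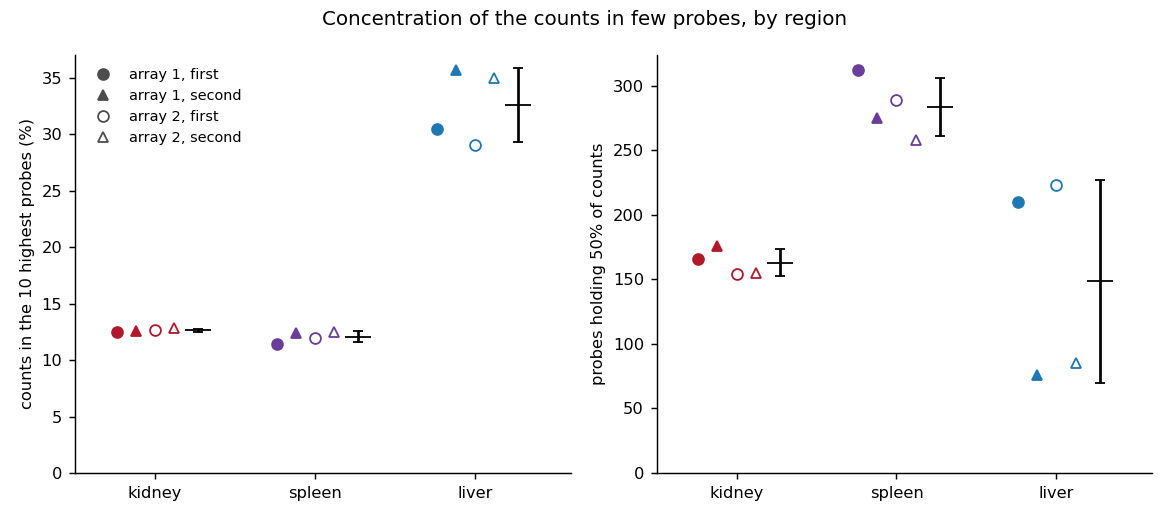
The left panel shows the percent of a region's counts in its 10 highest probes and the right panel the number of highest probes that together hold 50% of its counts; points are regions and bars the mean ± SD of 4. Liver regions 2 and 4 (triangles) need 76 and 85 probes and liver regions 1 and 3 (circles) 210 and 223, while spleen needs 258 to 312.

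Counted the other way, 50% of the counts were held by 166, 176, 154 and 155 probes in the kidney regions, by 312, 275, 289 and 258 in spleen and by 210, 76, 223 and 85 in liver. Spleen had the broadest spread of counts, and liver fell into its same-order pairs, on either side of kidney. Spleen exceeded kidney by a mean of 283.5 against 162.75 probes and liver by 283.5 against 148.5, each with an exact permutation p of 0.0429 after adjustment. Here too the 4 regions of a tissue were taken as separate samples. Kidney and liver did not differ past the threshold (SD of 10.4 and 78.8 probes, n = 4, exact permutation p = 0.657 after adjustment), and without liver region 2 or 4 the direction of that difference turned.

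The probes that led each tissue were mostly the same in its 4 regions. Of the probes among the 10 highest of any region, 8 of 13 in kidney, 9 of 12 in spleen and 9 of 12 in liver were among the 10 highest in all 4. The 10 probes highest by mean shared 3 between kidney and spleen, 3 between kidney and liver and 2 between spleen and liver. RTS0113442 was among the 5 highest of both kidney and spleen, with 13995, 12902, 14159 and 14021 CPM in kidney, 9488, 10678, 10173 and 10709.6 in spleen and 2979, 4388, 3377 and 4741 in liver. The tissues do not overlap, kidney and spleen being close (log2 fold change 0.42 ± 0.17, adjusted p = 0.0477, but 0.234 by library size alone and 0.0592 scaled to the 503 lowest probes) and liver 3.56-fold below kidney. RTS0113232, also among the 5 highest of kidney, measured 10954, 14785, 12599 and 16501 CPM in kidney, 2947 to 5119 in liver and 320.2 to 462 in spleen.

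RTS0111951 was the second highest probe of liver. It measured 64980.2, 95717, 63188 and 96369 CPM in liver, 4215, 4518, 4568 and 4566 in spleen and 3297, 8586, 4101 and 8952 in kidney. The spleen regions are near equal, while the kidney regions fall into regions 1 and 3 below spleen and regions 2 and 4 above it. Liver was 12.8-fold above kidney and 17.9-fold above spleen (adjusted p = 4.78e-11 and 7.83e-12). Among the leading spleen probes, RTS0111993 and RTS0113742 were also high in kidney, with spleen means of 16535 ± 1855 and 11924 ± 949.6 CPM against 9389 ± 576 and 6435 ± 1356 in kidney. Their liver means were 7308 ± 2126.5 and 2324 ± 662 CPM. For RTS0111993, kidney and liver did not differ past the threshold in edgeR (adjusted p = 0.13). RTS0112189 fell further below its spleen level in kidney than RTS0111993 and RTS0113742 did, with 10601 ± 977 CPM in spleen and 1183 ± 179 in kidney. Its liver mean was 2542 ± 430.4 CPM.

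Over all 2010 probes, the 3 tissues overlapped in every pairing for 791 (39.4%), and all 3 were separated for 255 (12.7%). Every kidney region lay above both other tissues for 320 probes and below both for 135, every spleen region above for 249 and below for 100, and every liver region above for 128 and below for 204. These counts are for TMM scaling and several of them move with the scaling, the 128 of liver becoming 373 with upper quartile scaling and 62 with the 503 lowest probes. Among the 255 separated probes the commonest order was kidney above spleen above liver with 86 probes. Spleen above liver above kidney had 59, kidney above liver above spleen 46, spleen above kidney above liver 34, liver above kidney above spleen 20 and liver above spleen above kidney 10.

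Within a tissue, most probes varied little between regions. Among probes with a mean count of at least 50, the range over the 4 regions reached 2-fold for 30 of 1050 in kidney (2.86%), 9 of 1266 in spleen (0.71%) and 24 of 429 in liver (5.59%). The limit on counts leaves different probes in each tissue, and liver had the lowest median total. These percentages therefore do not rank the tissues by spread. Of the 30 kidney probes, 24 had their 2 highest regions in the same order on both arrays, 12 with regions 1 and 3 and 12 with regions 2 and 4 on top. In liver, 16 of 24 had regions 2 and 4 on top and none had regions 1 and 3 there, but by library size alone 1 of 15 had regions 2 and 4 and 4 had regions 1 and 3 on top. In spleen, 4 of 9 had regions 1 and 3 and 2 had regions 2 and 4 on top. Over all 2010 probes, whatever their range, liver regions 2 and 4 both exceeded 1 and 3 for 533 and the reverse held for 296. Among the 128 probes above both other tissues in liver these numbers were 60 and 13, and among the 204 below both 85 and 8. The liver order turned by library size alone, with 138 and 934 over all probes and 36 and 54 among those above both other tissues. It held with upper quartile scaling (442 and 363 over all probes) and the 503 lowest probes (637 and 236). In kidney, regions 2 and 4 both exceeded 1 and 3 for 412 probes and the reverse held for 414. In spleen these numbers were 435 and 347. Both changed with the scaling. For kidney they were 533 and 302 with upper quartile scaling, 461 and 361 by library size alone and 290 and 536 with the 503 lowest probes. For spleen they were 400 and 357, 288 and 468, and 467 and 283, in that order. The TMM factors were 1.08, 0.89, 1.09 and 0.88 in liver regions 1 to 4, against 0.90 to 0.95 in kidney and 1.07 to 1.15 in spleen, and their part in the order of the liver regions was not tested.

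The kidney split is seen in RTS0113584, with 484, 1919, 538 and 2098 CPM in kidney regions 1 to 4 against 395 to 447 in spleen and 259.7 to 337 in liver. Kidney regions 2 and 4 hold about 4 times the level of regions 1 and 3, which lie little above the other tissues. Its kidney excess over spleen was 1.62 ± 0.30 (adjusted p = 3.55e-05). RTS0112664, chosen after its values were seen, ran the same way with 802, 2472, 907 and 2901 CPM, and RTS0113771, chosen likewise, ran the other way with 1969.7, 637, 1914 and 995. RTS0112868 was instead high in kidney region 3 alone, with 228, 220.4, 991 and 268 CPM in kidney and 197 to 389 elsewhere.

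Liver held the widest ranges, and these came from single regions. RTS0112819 had counts of 35, 39, 500 and 18 in liver regions 1 to 4, which is 159, 212, 4995 and 189 CPM. Liver region 3 is the highest of the 12 regions and the other 3 liver regions are the lowest, below kidney (364 to 567) and spleen (303 to 353). RTS0112874 had 205, 261, 1698 and 179 CPM in liver, with the same region on top. Other probes, named after their values were seen, peaked in other liver regions: RTS0113206 in region 1 with 1257, 256, 209.8 and 231 CPM, RTS0113865 in region 2 with 223, 892, 219.8 and 210.2, and RTS0113678 in region 4 with 232, 266, 209.8 and 1629. Each of these has 1 region several times above the other 3, and none of them shows its peak in the region of the same order on the other array.

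In spleen, RTS0113596 measured 1667, 623, 636 and 609 CPM, with region 1 alone high, and was called higher in spleen than in kidney (log2 fold change -0.99 ± 0.23, adjusted p = 0.000811), where the range was 401 to 497 CPM. Regions 2 to 4 of spleen thus lie only a little above kidney. RTS0112694 was low in spleen region 3 alone, with 241, 255, 98.5 and 221 CPM. At the other extreme, the 5 probes with the smallest range over all 12 regions stayed within 1.36-fold to 1.42-fold. They were RTS0113446, RTS0112959, RTS0112019, RTS0113146 and RTS0112243, at 299.7 to 412, 415 to 574, 358 to 498, 289.7 to 412 and 287 to 409.9 CPM. None of the 5 passed the threshold in any comparison, which follows largely from choosing them for a small range.

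No probe passed the test between the arrays. With tissue as a block, edgeR called none of 2010 probes between array 2 and array 1 (0%), with 92 (4.58%) at an unadjusted p under 0.05, and DESeq2 also called none, with 51 at that level. The interaction of tissue and array gave no call either (0 called, 0%, and 59 at an unadjusted p under 0.05; lowest adjusted p = 0.815). Neither test paired same-order regions across the arrays. The differences between the 2 regions of a tissue on an array thus stayed in the residual spread. The lack of calls therefore does not show that the arrays were alike. When 1 region was left out, up to 6 probes passed the interaction test, among them RTS0112819 and RTS0112874 without liver region 4, RTS0113678 without liver region 3, RTS0113865 without liver region 1, RTS0113206 without liver region 2 and RTS0112868 without kidney region 4. In each of these 6 cases the probe is one with a single high region, and the region left out was the other region of its tissue on the same array.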

How the data were processed

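The deposited files hold whole-number counts for each probe, made by the authors with the GeoMx NGS pipeline 2.3.4, per the file headers. No background subtraction or normalization is recorded there, and the aligner's version is not given in the sources used here. From the counts, library sizes were scaled by TMM and log2 CPM computed with a prior count of 2. The filterByExpr filter kept all 2010 probes. Pairs of tissues were tested over the 12 control regions by edgeR 4.0.16 (R 4.3.3, glmQLFit and glmQLFTest), p-values being adjusted by Benjamini-Hochberg and called under 0.05. Alternatives used DESeq2 1.42.0 and limma 3.58.1 (voom). Summary measures were compared by exact permutation tests over single regions (scipy 1.17.1), without summing same-order pairs. The fits were tested on simulated counts in which 200 probes were changed and regions were independent. That setting holds neither the very large liver folds nor the likeness of same-order regions, so it does not test the calls under those conditions.

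The labels do not tie regions to animals. Values were compared per region, regions being numbered in accession order, which pairs nothing by itself. Named probes were, per comparison and direction, the 5 of largest fold among called probes whose regions did not overlap. To these were added, per tissue, the 5 highest, the 5 furthest above and 3 furthest below both other tissues and the 2 of widest range, as well as the 5 steadiest overall. The rule also provided for probes differing between arrays, and no probe met it. The regions and these rules were chosen with earlier results of these data known. Marker lists for hepatocytes, kidney tubule, podocytes, B cells, T cells, macrophages, erythroid cells, endothelium, fibroblasts, smooth muscle and proliferation were not tested, because no table used here pairs probes with genes. With 92126 counts in the shallowest region, 1 count there equals about 10 CPM. Tumour regions were not analysed here.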

Additional observations from a re-analysis of the deposited data

Results flagged for a closer look

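Of 153 groups of 4 regions, from 47 named probes and 4 region measures in 3 tissues, 11 (7.19%) had 1 region so far from the other 3 that its gap to the nearest, relative to the group's range, passed Dixon's 95% critical value, which chance gives in about 1 of 20 groups. Of the 11, 5 were probes named for their wide range in that same tissue (RTS0112868, RTS0113596, RTS0112694, RTS0112819 and RTS0112874, the last 2 in liver), so their flags follow from how they were chosen. Without the 6 groups named in that way, 6 of 147 (4.08%) remain, which is no more than that chance rate. The gap of a probe is given here as a fraction of the range, both taken in log2 CPM rather than CPM. In liver, RTS0112819 (0.920) and RTS0112874 (0.836) were both high in region 3, the region with the lowest total count. In kidney, RTS0112868 (0.873) was high in region 3, RTS0113646 (0.915) was high in region 4, RTS0112019 (0.967) was low in region 2 and RTS0113442 (0.875) was low in region 2. In spleen, RTS0113596 (0.956) was high in region 1, RTS0112694 (0.848), RTS0112819 (0.849) and RTS0112947 (0.881) were low in region 3, and RTS0111951 (0.863) was low in region 1. Several of these groups span a small range, such as the 438 to 498 CPM of RTS0112019 in kidney.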

How the results depend on the processing

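All 1232 alternative values of 44 named comparisons, covering 30 probes and 28 settings, kept their direction and their side of the threshold. These comparisons were picked for large differences without overlap, so their stability follows largely from the choice. Outside these 44, some calls of named probes did not hold under all 4 scalings. They included RTS0112052, RTS0112868 and RTS0113442 between kidney and spleen and RTS0112694 and RTS0113761 between kidney and liver. RTS0112874 and RTS0113244 were others, between spleen and liver. Leaving out each region in turn gave 423 to 465 probes higher in kidney and 391 to 442 higher in spleen, 502 to 556 higher in kidney and 310 to 359 higher in liver, and 433 to 504 higher in spleen and 240 to 304 higher in liver. The counts of calls moved by over 1.5 times as follows, in the order higher in kidney and spleen, in kidney and liver, and in spleen and liver. Upper quartile scaling gave 1051 liver calls against kidney, and 330 and 855 against 496 and 300 for spleen and liver. Library size alone gave 305 and 725 for kidney and spleen and 152 for liver against spleen. The 503 lowest probes gave 141 and 147 for liver. The 2-fold test gave 131 and 108, 171 and 49, and 104 and 58. A mean count of at least 50 gave 358 for kidney over liver and 322 for spleen over liver. Array 1 alone gave 228 for liver against kidney. Array 2 alone gave 283 for spleen against kidney, 166 for liver against kidney, and 310 and 150 for spleen and liver. Calls shared by all 4 scalings, a setting chosen after seeing the data, numbered 305 for kidney against spleen, 141 for liver against kidney, and 330 and 141 for spleen and liver. For DESeq2, voom and the random block of same-order regions (correlation 0.111), no count moved by over 1.5 times.

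Also chosen after seeing the data were the other scalings of the orderings. Every kidney region lay below both other tissues for 256 probes with upper quartile, 220 with library size and 54 with the 503 lowest probes. Spleen lay below both for 60 with library size. Liver lay above both for 373, 79 and 62, and below both for 103 with upper quartile and 366 with the 503 lowest probes. For the regions of the same order, the coefficient of variation was also added as a ranking.

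With 3 regions against 4, no exact permutation test can go below 0.0571, so the loss of a call on leaving out a region says nothing about stability. The share of the 10 highest probes then differed by 0.36 to 0.71 percentage points (kidney minus spleen), -21.1 to -18.9 (kidney minus liver) and -21.7 to -19.5 (spleen minus liver). The number of probes holding 50% of counts differed by -129 to -111 (kidney minus spleen), -9.92 to 39.1 (kidney minus liver) and 111 to 159.8 (spleen minus liver). It turned to -9.92 without liver region 2 and -6.92 without liver region 4. The level of the 503 lowest probes differed by -0.26 to -0.22 log2 CPM (kidney minus liver) and -0.23 to -0.20 (spleen minus liver). With library size alone it differed by -0.27 for kidney minus spleen, then past the threshold (exact permutation p = 0.0429 after adjustment), and by -0.045 for spleen minus liver, no longer past it (0.686). The kidney and spleen difference in share was 0.21 percentage points for the single highest probe (exact permutation p = 0.0857 after adjustment) and 0.58 with thinning (0.0571). The log2 total of kidney minus spleen, 0.20, ranged from -0.085 to 0.43 and turned to -0.085 without kidney region 2 and -0.02 without spleen region 3. The interaction test called 0 to 6 probes on leaving out a region, with at least 1 without kidney region 4 or any 1 of the 4 liver regions. The causes of these shifts were not tested. Depth limits the low probes, since the median count of a probe was 26 in the shallowest region.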
